A study of Mus musculus with 13 samples.

Results

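The collagens that do not build the classical banded fibrils were followed through mouse C2C12 cells depleted of YBX3. C2C12 is an established mouse myoblast line, and YBX3 is a cold shock domain protein that binds RNA and DNA. The 10 genes were taken by name as 4 structural classes: the collagen VI chains Col6a1, Col6a2, Col6a3 and Col6a4, the network-forming Col8a1 and Col10a1, the fibril-associated collagens with interrupted triple helices (FACIT) Col12a1 and Col16a1, and the multiplexins Col15a1 and Col18a1. They are 10 of 55642 genes in the count table, and 9 of them were among the 16848 genes with enough reads to test, Col15a1 being the exception.

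The mRNA of 13 libraries was sequenced, all of the same unmodified cell line and all reverse transfected with siRNA. Cells received either a non-targeting siRNA (control KD) or siRNA against YBX3 (YBX3 KD). At 0 day they had stayed in growth medium as proliferating myoblasts, and at 1 day they had been moved to medium with 10% horse serum 24 h after transfection, so that every library was harvested 48 h after transfection. The groups held 4 libraries of control KD at 0 day (replicates A to D), 2 of control KD at 1 day (C and D), 4 of YBX3 KD at 0 day (A to D) and 3 of YBX3 KD at 1 day (B to D). The letters come from the sample descriptions. The titles number the replicates from 1 in each group, so at 1 day letters and title numbers pair the libraries differently. The titles call them biological replicates without saying what was separate between them, so p-values measure the spread between these libraries. A cell line stands in for muscle here, without the fibroblasts and vessels that surround fibres in tissue.

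Collagen VI is a heterotrimer of an alpha 1, an alpha 2 and a further chain (alpha 3, or one of the related alpha 4 to alpha 6 chains). It assembles into beaded microfilaments next to the basement membrane of muscle fibres, and loss of its main chains causes muscular dystrophy. FACIT collagens decorate the surface of fibrils, collagens VIII and X form open networks, and the multiplexins XV and XVIII sit at basement membranes.

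All of these genes code for a collagenous repeat, in which glycine is the first residue of each triplet, and the repeat is shown because it is what the 10 genes share beyond their names. The opening 27 bases of the longest uninterrupted repeat in the GENCODE vM39 canonical coding sequence are given for the collagen VI chains and for Col10a1, with the glycine codons in capitals.
Col6a1: GGAcctccaGGGccccgaGGCgaccct
Col6a2: GGAccccacGGAcccaagGGTtaccga
Col6a3: GGAcccaaaGGAgagacgGGAgacatc
Col6a4: GGCcccaagGGAgaaaagGGAaggcgt
Col10a1: GGCttgccaGGTttgaggGGAcaaagg
These stretches start at coding base 766 of Col6a1, 811 of Col6a2, 4672 of Col6a3, 4621 of Col6a4 and 904 of Col10a1. Counting runs of at least 10 triplets, the repeat covered 60.4% of the coding length of Col10a1 and 54.9% of Col16a1, but 12.3% of Col6a3 and 7.63% of Col12a1, whose remaining sequence codes for other domains. The longest run had 87 triplets in both Col6a1 and Col6a2 and 45 triplets in both Col6a3 and Col6a4. Of 22263 canonical coding sequences, 98 (0.44%) held such a run, and 44 of those 98 carried a collagen symbol.

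Several of the genes are neighbours on GRCm39. Col6a2 (chr10:76429660-76459549) and Col6a1 (chr10:76543440-76562283) lie on the minus strand 83.9 kb apart, and Col18a1 (chr10:76888012-77002390, minus strand) begins 326 kb beyond Col6a1. Col10a1 (chr10:34265971-34273081, plus strand) is on the same chromosome, and Col6a4 (chr9:105866653-105973990, minus strand) and Col6a3 (chr1:90693645-90771780, minus strand) are on others. The whole of Col10a1 (7111 bases) lies within Nt5dc1 on the opposite strand, and Col18a1 shares 8825 bases with Slc19a1 on the opposite strand. The libraries were stranded, but whether strand was used in counting is not given in the sources used here.

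The knockdown was visible in every library. Ybx3 mRNA, in scaled counts per 1000000 (CPM), lay between 265 and 347 in the 6 control KD libraries and between 28.7 and 71.5 in the 7 YBX3 KD libraries, a log2 fold change of -2.81 (SE 0.17, edgeR adjusted p = 5.26e-06). Library totals ran from 33451547 to 71811371 counts. Muscle and myoblast markers were present (11 of 12 tested, summed level 440 to 672 CPM), with Chrna1 and Cdh15 the highest (control KD means 263 and 137 CPM). Others of that list were low: Myod1, Myog, Myh3 and Ckm had control KD means of 1.07, 0.338, 0.345 and 0.317 CPM. Pecam1 and Ptprc, the defining endothelial and leukocyte markers, stayed at or under 0.112 and 0.0424 CPM. Other markers of those lists were present in every library, the endothelial Cdh5 at 0.728 to 1.39 CPM and the leukocyte markers Cd14 at 7.68 to 11.7 CPM and Cd68 at 1.36 to 2.47 CPM. Marker genes called higher over both time points were Chrna1 of the muscle list (0.37, adjusted p = 0.0449), Tek of 2 endothelial markers tested (1.75, adjusted p = 0.0375, at most 0.318 CPM) and Lyz2 of 4 leukocyte markers tested (0.99, adjusted p = 0.0425, at most 1.62 CPM). None of the 4 fibroblast markers tested was called, and 1.29% of all tested genes were called higher and 1.04% lower. A fit with the replicate letter as a block, which compares libraries of the same letter, added Myod1 of the muscle list (1.11, adjusted p = 0.0726 without the block and 0.0155 with it). That fit called 5.4% of all genes higher. The paper reports no change of Myod1 or Myog mRNA in these data. Called or not, all 11 tested muscle markers changed upward (median 0.65) and all 4 fibroblast markers downward (median -0.39). Upward changes were also found for 2 of 2 endothelial and 2 of 4 leukocyte markers, against 50.1% of all genes. Summed levels were 0.857 to 1.57 CPM in control KD and 1.123 to 1.739 CPM in YBX3 KD for the 6 endothelial markers, 11.3 to 15.6 and 12.8 to 14.3 CPM for the 6 leukocyte markers, and 56.5 to 98.8 and 36.2 to 98.7 CPM for the 8 fibroblast markers. The summed muscle markers were 591 to 672 CPM in YBX3 KD at 0 day, 446 to 546 CPM in control KD at 0 day, 458 to 571 CPM in YBX3 KD at 1 day and 440 to 473 CPM in control KD at 1 day, and the part of these in the collagen results was not tested. In bulk RNA, a change in the number of cells that express a gene and a change in RNA per cell cannot be told apart. The replicate D libraries stood apart from A to C for several of these collagens. Results with and without them are given for the collagen VI chains, Col10a1, Col8a1 and Col18a1, and for Col16a1 at 1 day.

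Most of the genes were well expressed. Per kilobase of canonical transcript, Col6a1 was the most abundant in control KD at 0 day, with 151 ± 33.5 CPM per kb (SD, n = 4), above 97.7% of the tested genes. It was followed by Col6a3 at 75.3 ± 25.7, Col12a1 at 52.6 ± 4.37, Col6a2 at 38.3 ± 4.48, Col18a1 at 27.0 ± 3.73, Col8a1 at 20.5 ± 7.5 and Col16a1 at 4.86 ± 0.888 CPM per kb. Then came a drop to Col6a4 at 0.0893 ± 0.0229 and Col10a1 at 0.0817 ± 0.0397 CPM per kb, above 5.52% and 5.0% of the tested genes. The library ranges of Col6a3 and Col12a1, of Col18a1 and Col8a1, and of Col6a4 and Col10a1 overlapped, so the order within these pairs does not exceed the spread. Col6a3 also overlapped Col6a2, through its replicate D library.

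**Figure D1:**
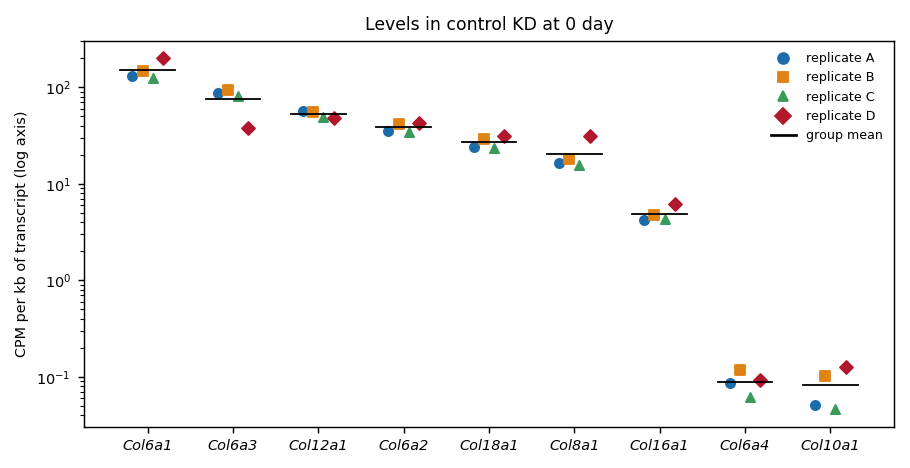
Level of 9 collagen genes in the 4 control KD libraries at 0 day, in CPM per kb of canonical transcript on a log axis, with points for replicates A to D and a line at the group mean. Col6a4 and Col10a1 sit at 0.0893 and 0.0817 CPM per kb on average, far below the other 7 genes, and Col6a3 in replicate D (37.7) sits apart from its 3 other libraries.

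The comparison of YBX3 KD with control KD asks which transcripts depend on YBX3, and the collagens that changed were the 2 least abundant ones tested. Col10a1 and Col6a4 rose over both time points and at 0 day, and no collagen of the 9 fell. That is 2 of 9 higher over both time points, where 1.29% of all tested genes were called higher and 1.04% lower, and 2 of 9 higher at 0 day, where 0.208% were called higher and 0.22% lower (edgeR, adjusted p under 0.05). By the stricter rule the study used for its gene lists (fold change above 1.3 and adjusted p under 0.001) none of the 9 passed in edgeR, against 0.00594% of genes higher and 0.107% lower. In DESeq2, the tool the study used, 2 of the 9 passed that rule, Col6a4 (1.34, adjusted p = 6.97e-12) and Col10a1 (2.11, adjusted p = 2.08e-07), against 0.632% of genes higher and 0.489% lower. The study added independent hypothesis weighting, which was not used here. Its paper already names both genes among the collagens increased in these same data. The 3 abundant collagen VI chains gave no call in any comparison.

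**Figure D2:**
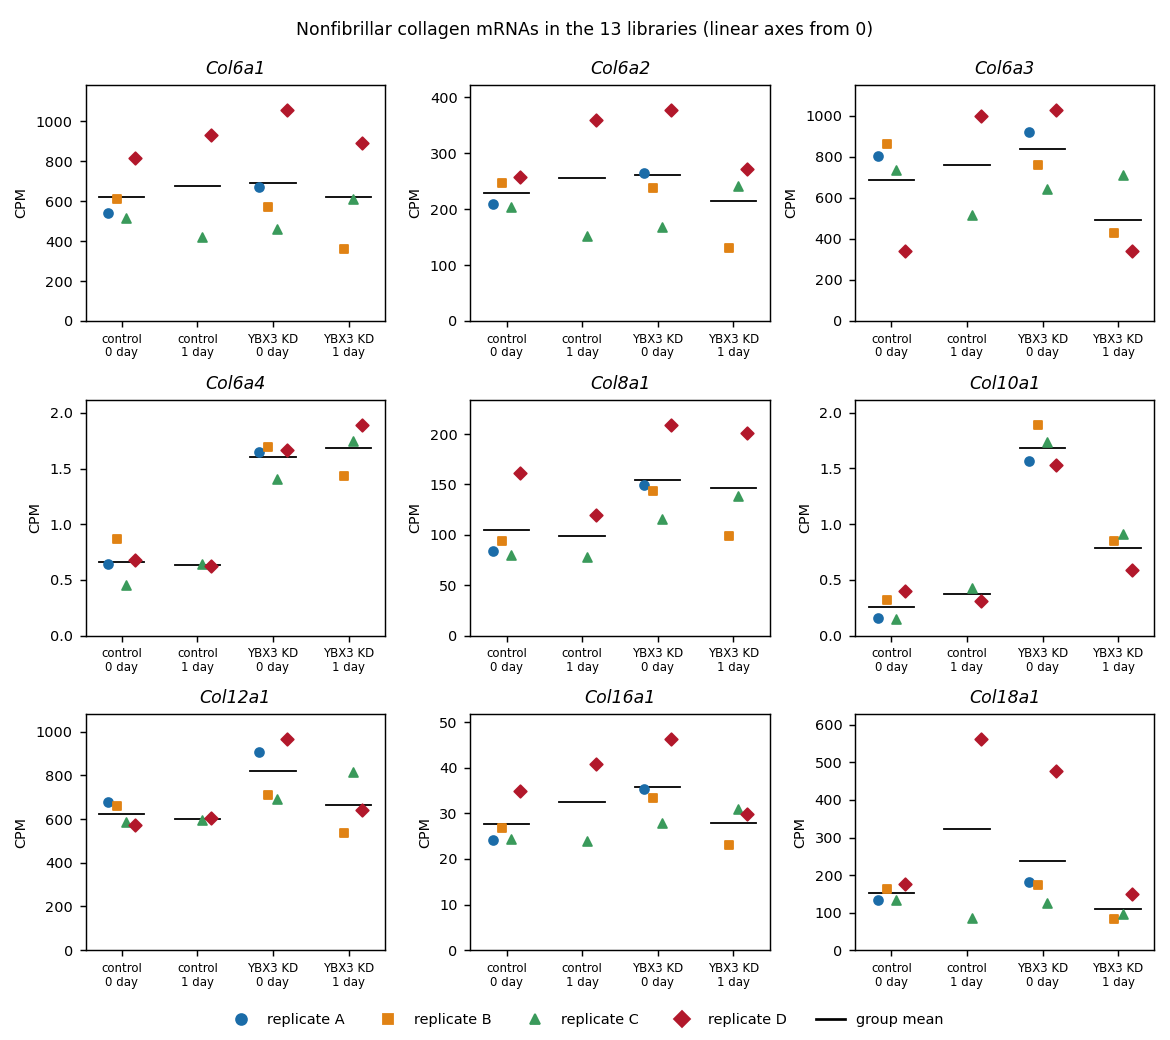
CPM of 9 collagen genes in the 13 libraries, each panel with its own linear axis from 0, points by replicate letter and a line at each group mean. All 7 YBX3 KD libraries lie above all 6 control KD libraries for Col6a4 and Col10a1, while replicate D is the highest library of Col6a1 in each of the 4 groups.

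Col10a1, the collagen of hypertrophic cartilage, showed the largest change. At 0 day its level was 0.160, 0.319, 0.146 and 0.401 CPM in control KD replicates A, B, C and D and 1.57, 1.89, 1.74 and 1.53 CPM in YBX3 KD replicates A, B, C and D. At 1 day it was 0.427 and 0.314 CPM in control KD replicates C and D and 0.847, 0.913 and 0.589 CPM in YBX3 KD replicates B, C and D. The groups did not overlap at either time, with YBX3 KD above, as in 4.83% of tested genes at 0 day and 10.5% at 1 day. The highest YBX3 KD values were those at 0 day. These levels rest on few reads, 7 to 22 counts in each control KD library and 23 to 136 in each YBX3 KD library. With both days in the fit the log2 fold change was 2.10 (SE 0.34, adjusted p = 0.00882), and at 0 day it was 2.74 (SE 0.33, adjusted p = 0.00399). At 1 day it was 1.07 (SE 0.41, adjusted p = 0.584).

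The fitted Col10a1 step from 0 day to 1 day was negative in YBX3 KD and positive in control KD, without a call. In YBX3 KD the 3 libraries at 1 day lay below all 4 at 0 day (log2 fold change -1.10, SE 0.33, adjusted p = 0.988), an arrangement that 3.42% of tested genes showed. In control KD the level was 0.256 ± 0.125 CPM (SD, n = 4) at 0 day and 0.370 ± 0.0800 CPM (SD, n = 2) at 1 day, with overlapping libraries. The difference of the YBX3 KD effect between the days was -1.67 (SE 0.51, adjusted p = 1.00), so it did not pass over all genes. Col10a1 passed the filter on low counts also through the controls, since 4 of 6 control KD libraries were above the limit of 0.227 CPM that a gene had to reach in 2 libraries.

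Values of the surrounding gene and of cartilage stand beside this result. Nt5dc1, which contains Col10a1 on the other strand, lay between 14.4 and 22.3 CPM and changed by 0.14 on the log2 scale (adjusted p = 0.518). Of 12 cartilage and bone markers, 5 were tested and none was called, and the summed list was 136 to 187 CPM in control KD and 144 to 173 CPM in YBX3 KD at 0 day, with Sox9 and Runx2 the highest. The defining cartilage genes Col2a1, Acan, Ihh and Matn1 were at or under 0.318, 0.0388, 0.179 and 0.0388 CPM in every library.

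Col6a4, a long chain related to alpha 3, gave fold changes of similar size at both times. In control KD it was 0.639, 0.865, 0.453 and 0.679 CPM in replicates A to D at 0 day and 0.640 and 0.627 CPM in C and D at 1 day. In YBX3 KD it was 1.65, 1.70, 1.41 and 1.67 CPM in A to D at 0 day and 1.43, 1.75 and 1.89 CPM in B to D at 1 day. No YBX3 KD library fell into the control range, and the 2 days of each arm overlapped. The counts behind these levels were 22 to 38 in control KD and 63 to 122 in YBX3 KD libraries. The log2 fold change was 1.33 over both time points (SE 0.16, adjusted p = 0.00180), 1.29 at 0 day (SE 0.21, adjusted p = 0.0287) and 1.41 at 1 day (SE 0.28, adjusted p = 0.244).

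The call of Col6a4 at 0 day alone depended on single libraries. Leaving out control KD replicate A, control KD replicate C, or any of the 4 YBX3 KD replicates at 0 day gave adjusted p values of 0.105, 0.0744, 0.0837, 0.0935, 0.0668 and 0.0800, with log2 fold changes between 1.14 and 1.34. With the title number as a block its adjusted p at 0 day was 0.0634. Over both time points the highest adjusted p without a library was 0.00745 for Col6a4 and 0.0261 for Col10a1. Every YBX3 KD library was above every control KD library for these 2 of the 9 genes, an arrangement found for 0.95% of all tested genes, and for none of the 9 was it below (1.08% of genes).

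**Figure D3:**
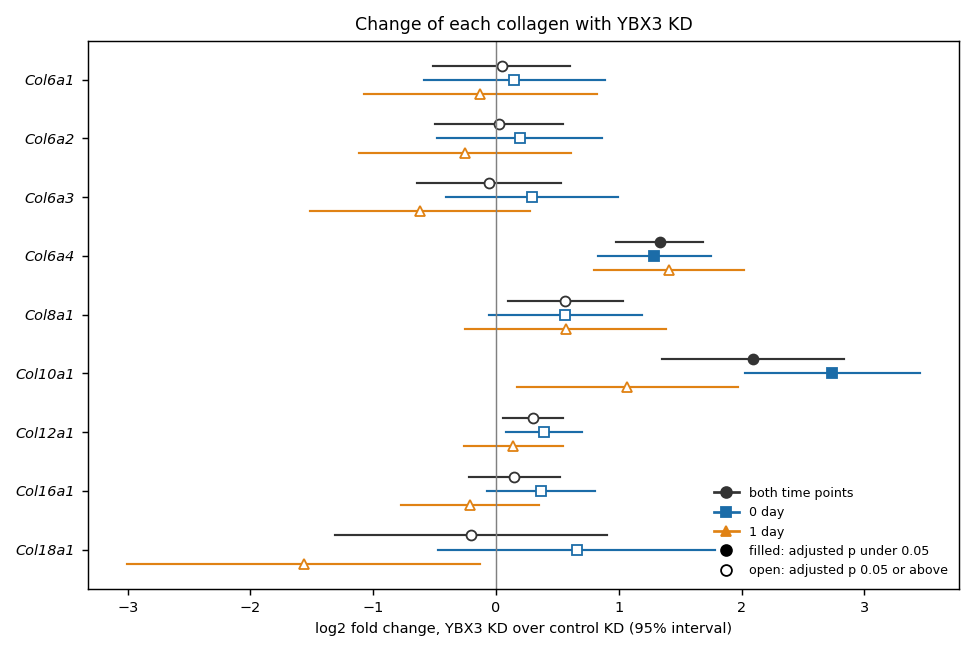
Log2 fold change of YBX3 KD over control KD for 9 collagen genes, with 95% intervals, over both time points (circles), at 0 day (squares) and at 1 day (triangles). Filled symbols mark an adjusted p under 0.05, which only Col6a4 and Col10a1 have, over both time points and at 0 day.

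The promoters of these 2 genes are printed because their mRNAs were the ones that rose. They are the 250 bases before the annotated start site, from RefSeq on GRCm38.p6, with matches to CCAAT or its reverse complement ATTGG, and to TATAAA or its reverse complement TTTATA, in capitals. The first is chr10:34389731-34389980 on the plus strand and the second is chr9:106096692-106096941 on the minus strand.
Col10a1: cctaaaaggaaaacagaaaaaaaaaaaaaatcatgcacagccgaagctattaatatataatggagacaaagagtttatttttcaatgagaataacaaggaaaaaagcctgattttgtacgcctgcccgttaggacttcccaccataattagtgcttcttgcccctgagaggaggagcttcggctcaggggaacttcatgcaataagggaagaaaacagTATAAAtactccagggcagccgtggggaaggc
Col6a4: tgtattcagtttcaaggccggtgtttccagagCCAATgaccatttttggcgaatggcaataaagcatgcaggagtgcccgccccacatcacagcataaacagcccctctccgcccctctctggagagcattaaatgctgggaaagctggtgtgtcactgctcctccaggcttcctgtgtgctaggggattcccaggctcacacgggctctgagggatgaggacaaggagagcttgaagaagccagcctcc
Col10a1 held the TATAAA match, 32 bases before its start site, and no CCAAT match. Col6a4 held a CCAAT match 218 bases before its start site and no TATAAA match. Col12a1 has no window in the table, and the other 9 genes have 11 windows. Among these, 3 held CCAAT or ATTGG (Col6a4, Col16a1 and 1 of the 2 windows of Col18a1), and 1 held TATAAA or TTTATA, that of Col10a1. Over all 32851 windows the shares were 33.8% and 12.4%. GC content ran from 41.6% in the window of Col10a1, the lowest of the 11, to 75.6% in that of Col16a1, with 55.2% in Col6a4. A match of letters is a description and not a binding site.

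The 3 main chains of collagen VI differed little between the arms. Col6a1 lay between 422 and 933 CPM in control KD (median 575) and between 359 and 1055 CPM in YBX3 KD (median 612). In the fit over both time points it changed by 0.05 on the log2 scale (95% interval -0.51 to 0.60, adjusted p = 0.952). Col6a2 lay between 152 and 360 CPM in control KD (median 227) and between 130 and 377 CPM in YBX3 KD (median 241), with a change of 0.02 (-0.50 to 0.54, adjusted p = 0.977). Col6a3 lay between 343 and 1001 CPM in control KD (median 769) and between 340 and 1028 CPM in YBX3 KD (median 710), with a change of -0.06 (-0.65 to 0.53, adjusted p = 0.942). The ranges of the arms overlapped almost wholly for each chain.

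The chains kept different relations to each other. Col6a2, per kilobase, was a steady share of Col6a1, between 21.0% and 28.6% in all 13 libraries. Col6a3 was between 43.8% and 66.9% of Col6a1 in 11 libraries, but 18.9% in control KD replicate D at 0 day and 17.2% in YBX3 KD replicate D at 1 day. In those libraries Col6a3 was the lowest of its group, 343 CPM against 735 to 862 CPM in control KD A to C at 0 day and 340 CPM against 431 and 710 CPM in YBX3 KD B and C at 1 day. The other 2 replicate D libraries held 1001 CPM (control KD, 1 day) and 1028 CPM (YBX3 KD, 0 day), the highest of their groups. In replicate D, Col6a3 was thus higher in YBX3 KD at 0 day and higher in control KD at 1 day. This crossed pattern moves the YBX3 KD change in opposite directions at the 2 days. With all libraries the Col6a3 change was 0.29 at 0 day and -0.62 at 1 day, and without replicate D it was -0.05 and 0.15. What set these libraries apart was not tested. In its movement over the 13 libraries Col6a2 was nearest to Col6a1 of all pairs among the 9 genes (root mean square difference of centred log2 CPM 0.129), and Col6a1 and Col6a3 differed by 0.625.

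**Figure D4:**
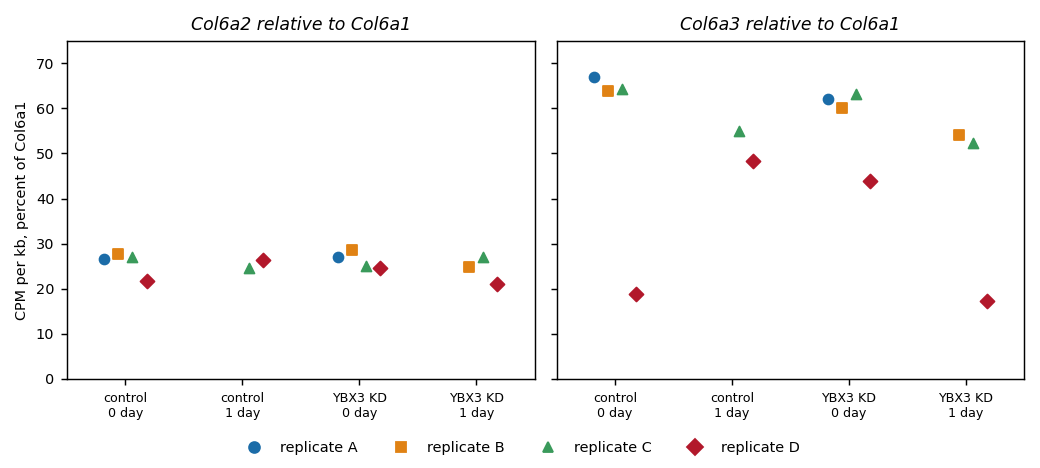
Col6a2 (left) and Col6a3 (right) in CPM per kb as a percent of Col6a1 in the same library, by group, with points by replicate letter. Col6a2 stays between 21.0% and 28.6%, while Col6a3 drops to 18.9% and 17.2% in 2 of the 4 replicate D libraries.

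Without the 4 replicate D libraries the collagen VI chains still gave no call. With both days fitted, their log2 fold changes were then 0.08 for Col6a1, 0.10 for Col6a2 and 0.01 for Col6a3. At 1 day Col6a3 went from -0.62 (SE 0.41, adjusted p = 0.754) with all libraries to 0.15 (adjusted p = 0.901) without replicate D. For Col6a4 the change over both time points was 1.29 (adjusted p = 0.00478) without replicate D, and for Col10a1 it was 2.39 (adjusted p = 0.00508).

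Col8a1, a short-chain network collagen also made by vascular cells, was the gene whose call rested on the pairing of libraries. At 0 day it was 84.1, 93.4, 79.6 and 161 CPM in control KD A, B, C and D and 150, 144, 116 and 209 CPM in YBX3 KD A, B, C and D. At 1 day it was 77.6 and 120 CPM in control KD C and D and 98.6, 139 and 201 CPM in YBX3 KD B, C and D. Replicate D was highest in all 4 groups, so the arms overlapped, but within each replicate letter and day the YBX3 KD library was above the control KD library in 6 of 6 pairs. Col6a4, Col10a1 and Col12a1 also had 6 of 6, and the share of all tested genes that do was not determined. Over both time points Col8a1 changed by 0.57 on the log2 scale (SE 0.22, adjusted p = 0.216). With the replicate letter as a block it was 0.63 (adjusted p = 0.00645), and without replicate D it was 0.65 (adjusted p = 0.0050). With the title number as the block it was 0.58 and was not called (adjusted p = 0.0938). At 0 day the change was 0.56 (SE 0.28, adjusted p = 0.511), and it was 0.67 (adjusted p = 0.0260) without replicate D, 0.59 (adjusted p = 0.0476) with the letter block and 0.61 (adjusted p = 0.279) with the title number block. Over both time points, leaving out control KD replicate D at 0 day alone gave 0.73 (adjusted p = 0.0496).

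With the letter as a block 3 of the 9 collagens were higher over both time points and 3 at 0 day, the third being Col8a1, and 5.4% and 1.37% of all tested genes were called higher. The blocked adjusted p over both time points was 0.00263 for Col6a4 and 0.0102 for Col10a1.

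The FACIT collagens gave no call in edgeR, with or without the block. Col12a1, which coats fibrils in tendon and muscle connective tissue, was 676, 659, 585 and 574 CPM in control KD A to D and 909, 711, 691 and 965 CPM in YBX3 KD A to D at 0 day, without overlap. Such an arrangement at 0 day was found for 4.83% of all tested genes. At 1 day it was 598 and 607 CPM in control KD and 538, 816 and 639 CPM in YBX3 KD, and these libraries overlapped. Its change was 0.39 at 0 day (SE 0.14, adjusted p = 0.308) and 0.30 over both time points (SE 0.11, adjusted p = 0.207). At 0 day the lowest control KD library and the highest YBX3 KD library were both replicate D. Leaving out YBX3 KD replicate D at 0 day gave 0.30 at 0 day and 0.24 over both time points. Over the settings run, the change at 0 day lay between 0.26 and 0.46. YBX3 KD was higher in 6 of 6 letter pairs, a count for which the share of all tested genes was not determined. DESeq2 with the letter block called Col12a1 over both time points (0.30, adjusted p = 0.0463), and DESeq2 without the block did not (adjusted p = 0.138). The share of all tested genes called by DESeq2 with the block was not determined. Col16a1 lay between 24.0 and 40.8 CPM in control KD (median 25.7) and between 23.2 and 46.2 CPM in YBX3 KD (median 30.9), with a change of 0.15 (95% interval -0.22 to 0.52, adjusted p = 0.725).

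Of the multiplexins, Col15a1 was hardly detected. It had 0 counts in 7 of the 13 libraries and at most 4 in any, all of them under 0.0848 CPM, so no change could be measured at this depth. Col18a1, whose protein is the source of endostatin, was the most uneven of the abundant genes. In control KD it was 135, 163, 133 and 175 CPM in A to D at 0 day and 86.3 and 561 CPM in C and D at 1 day. In YBX3 KD it was 180, 173, 125 and 476 CPM in A to D at 0 day and 81.7, 97.3 and 149 CPM in B to D at 1 day. The 2 high values are both replicate D, and the other 11 libraries lay between 81.7 and 180 CPM. These 2 libraries are also those with the highest Col6a3.

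The fitted changes of Col18a1 followed those 2 libraries. The log2 fold change was 0.66 at 0 day (SE 0.52, adjusted p = 0.738) and -1.57 at 1 day (SE 0.66, adjusted p = 0.606), and the difference between days was -2.23 (SE 0.84, adjusted p = 1.00). Without the 4 replicate D libraries these values were 0.15, 0.05 and -0.10. Without control KD replicate D at 1 day alone, the change at 1 day was 0.33 and the difference between days was -0.32. Slc19a1, on the opposite strand, lay between 13.2 and 38.0 CPM and gave -0.10 over both time points (adjusted p = 0.887). Over both time points Col18a1 itself gave -0.20 (95% interval -1.31 to 0.90, adjusted p = 0.887), and 0.12 without replicate D.

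At 1 day none of the 9 collagens was called, where 0.00594% of all genes were called higher and 0.0653% lower. Of the 9, 3 had an unadjusted p under 0.05 (Col6a4, Col10a1 and Col18a1), as did 1312 of 16848 genes. DESeq2 called 1 of them, Col6a4 (log2 fold change 1.40, adjusted p = 0.00186), and limma-voom none. Of the 16815 genes that DESeq2 tested at 1 day, it called 66 higher and 78 lower. In both Col6a4 and Col10a1 the 3 YBX3 KD libraries were above the 2 control KD libraries, as in 10.5% of all tested genes.

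The step from 0 day to 1 day of the medium change gave no call by edgeR for any collagen in either arm, nor did the difference of the YBX3 KD effect between days, and 0% of all tested genes were called in these 3 comparisons. An unadjusted p under 0.05 was found for 0 of the 9 collagens in control KD, 1 in YBX3 KD (Col10a1) and 2 in the difference (Col10a1 and Col18a1), with 242, 721 and 444 of all genes. DESeq2 and limma-voom called none of the 9 either. In control KD no collagen had its 1 day libraries all above the 0 day libraries, which 2.78% of tested genes did.

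The median change of the 9 collagens over both time points was 0.15 on the log2 scale with 7 of 9 above 0, against 0.00080 over all genes, of which 50.1% were above 0. At 0 day the median was 0.39 with 9 of 9 above 0, against -0.0039 over all genes, of which 49.2% were above 0. At 1 day the median was -0.13 with 4 of 9 above 0, against 0.015 over all genes, of which 52.1% were above 0. The 0 day count depended on replicate D. Col6a3 was below 0 without it, and Col6a1 and Col6a2 were below 0 without YBX3 KD replicate D at 0 day alone. The list at 0 day holds the 2 called genes and 7 whose adjusted p did not pass.

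Among the other 34 collagen genes, 25 were tested and 24 of these had a positive log2 fold change over both time points, with a median of 0.47, 6 called higher and 0 called lower, beside 1.29% and 1.04% of all tested genes. With the letter block 11 were called higher and 0 lower, beside 5.4% and 4.38% of all tested genes. The 4 with the smallest p were the fibrillar Col5a2 (0.51, adjusted p = 0.00321), the FACIT Col9a3 (1.14, adjusted p = 0.00449), the fibrillar Col5a1 (0.42, adjusted p = 0.00833) and the fibrillar Col24a1 (1.27, adjusted p = 0.0200). Of the 2 other chains of the collagen VI family, Col6a5 varied widely between libraries, from 0.0970 to 1.25 CPM in control KD and from 0.0177 to 4.86 CPM in YBX3 KD (1.21, SE 1.02, adjusted p = 0.620). Col6a6 was at no more than 0.0470 CPM and was not tested.

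**Figure D5:**
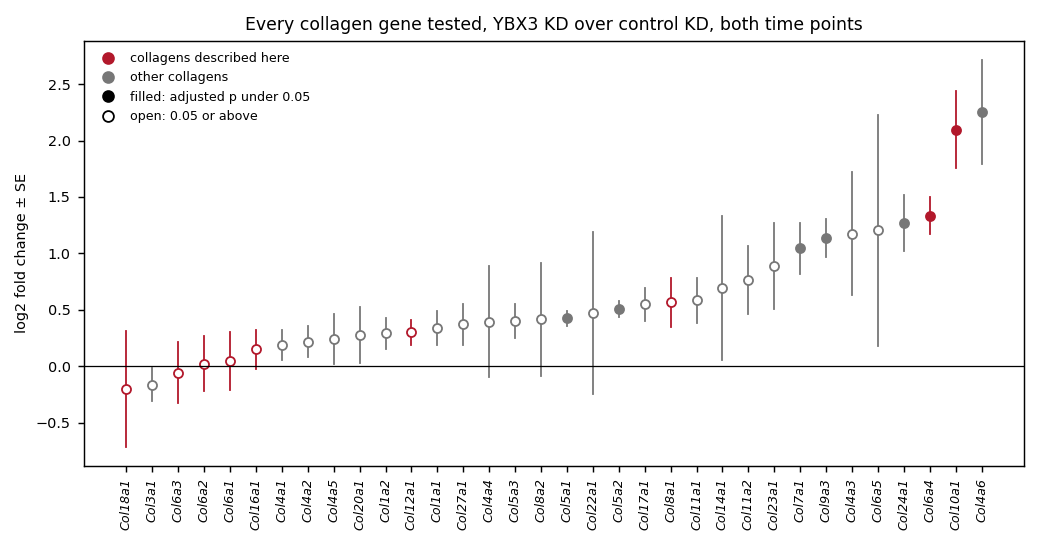
Log2 fold change of YBX3 KD over control KD over both time points, with its SE, for the 34 collagen genes tested, sorted from lowest to highest. Col10a1 (2.10) and Col6a4 (1.33) are next to the top, below Col4a6 only, and Col6a1, Col6a2, Col6a3, Col16a1 and Col18a1 are among the 6 lowest.

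Genes that act with these collagens were counted in the same way. Of 15 partners and receptors of collagen VI, 13 were tested, 1 rose over both time points, 0 fell, and the median change was 0.21, where 1.29% of all tested genes were called higher and 1.04% lower. The gene that rose was Itgb1, the beta chain of the collagen-binding integrins (0.29, SE 0.07, adjusted p = 0.0394), between 805 and 966 CPM in control KD and between 940 and 1193 CPM in YBX3 KD. The next smallest p values were those of the integrin chains Itga11 (0.58, SE 0.23, adjusted p = 0.242) and Itga1 (0.32, SE 0.18, adjusted p = 0.410) and of fibronectin, Fn1 (0.33, SE 0.23, adjusted p = 0.539). With the letter block 2 of the 13 were called higher, Fn1 passing as well (adjusted p = 0.0294), where 5.4% of all tested genes were called higher and 4.38% lower. Of 15 enzymes and chaperones that modify or fold collagen, 14 were tested, 1 rose, 0 fell, and the median change was 0.05. It was Plod2, a lysyl hydroxylase (0.27, SE 0.06, adjusted p = 0.0375), with 147 to 178 CPM in control KD and 185 to 202 CPM in YBX3 KD. The prolyl hydroxylases P4ha3 (0.28, SE 0.09, adjusted p = 0.153) and P3h3 (0.35, SE 0.14, adjusted p = 0.227) and the prolyl isomerase Ppib (-0.10, SE 0.05, adjusted p = 0.392) followed.

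The genes whose course over the 13 libraries was most like that of the 3 most variable collagens were sought over all tested genes. Likeness was the root mean square difference of log2 CPM after centring each gene, so that 0 is the same course. For Col10a1 (SD of log2 CPM 1.17, above 97.2% of genes) the nearest were Serpinb9e at 0.619, Cd80 at 0.621 and Trpc5os at 0.637. For Col6a4 (SD 0.70) they were Eif1ad10 at 0.204, Trpc5os at 0.232 and the FACIT collagen Col9a3 at 0.245. For Col18a1 (SD 0.83) they were Rundc3a at 0.331, Cthrc1 at 0.350 and Igfbp2 at 0.375. Trpc5os was listed for both collagens that rose, but only its distance to Col6a4 was small. Its 0.637 from Col10a1 was about the 0.643 between Col10a1 and Col6a4 themselves.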

How the data were processed

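The authors mapped reads of stranded mRNA libraries with Salmon to GRCm39 (Gencode M30, canonical list) and deposited estimated counts per gene as whole numbers, without normalization. Whether counting used strand is not given in the sources used here. Symbols and positions came from GENCODE vM39. Genes were filtered with filterByExpr, scaled by trimmed mean of M-values and tested in edgeR 4.0.16 (R 4.3.3) with the default quasi-likelihood fit, Benjamini-Hochberg adjusted over 16848 genes, with intervals from the moderated t distribution. The comparison over both time points had day and knockdown as terms, the others were contrasts of the 4 group means. CPM are counts per 1000000 of scaled library size. The scripts were tested on simulated data. Members, lists and tests were chosen with earlier results of these data known. Named genes were all 10 collagens, Ybx3, up to 4 of each list by smallest p over both time points, and 3 nearest genes for each of the 3 most variable members. Some genes are named beyond this rule (Col6a5, Col6a6, Nt5dc1, Slc19a1, Col4a6 and markers), after their values were seen. The sources used here do not say whether the replicate letter marks paired libraries. The 16 same-letter pairs of groups had deviations from group means correlated at 0.117 to 0.730. Above 0.1 were 11 of 46 different-letter pairs and 8 of 16 pairs with the same title number. Same-letter pairs of replicate D lay between 0.409 and 0.730. Outside D a different letter could be nearer: control KD replicate C at 0 day gave 0.419 with YBX3 KD replicate B at 1 day and 0.117 with replicate C. The letter was the block in an alternative fit. DESeq2 1.42.0, limma-voom 3.58.1, other filters and scalings, and each library left out were tried.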

Additional observations from a re-analysis of the deposited data

Results flagged for a closer look

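Of 20 gene and group combinations with 4 libraries, 3 held a library far from the other 3 by Dixon's criterion, which chance alone meets in about 1 of 20 groups. Col18a1 stood at 476 CPM in YBX3 KD replicate D at 0 day, against 125 to 180 CPM in A to C. Col8a1 stood at 161 CPM in control KD replicate D at 0 day, against 79.6 to 93.4 CPM in A to C. Col6a4 stood at 1.41 CPM in YBX3 KD replicate C at 0 day, the lowest of its group but above all control KD libraries. No collagen's YBX3 KD effect differed between the days by the adjusted test of the difference.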

How the results depend on the processing

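The count of collagens called over both time points (2) was 1 when genes needed at least 10 counts in every library, which removed Col10a1 because it had 7 to 9 counts in some control KD libraries, 4 with DESeq2 and the letter as a replicate block (Col8a1 and Col12a1 beside the 2), and 0 by the stricter thresholds of fold change and adjusted p in edgeR, but 2 by those thresholds in DESeq2. At 0 day the count (2) was 1 without a filter on low counts, 1 with at least 10 counts, 1 with the title number as a replicate block and 1 with only the libraries compared, it was 3 without replicate D, with the letter block and with DESeq2 and the letter block, and it ran from 1 to 2 when single libraries were left out. At 1 day (0) it was 1 with DESeq2 and 2 with DESeq2 and the letter block. Over both time points it ran from 2 to 3 with single libraries left out. Among the 9 collagens of the rule, the letter block in edgeR changed the call of Col8a1 only, over both time points and at 0 day, and the title number block did not call Col8a1. Over all genes and both time points, 218 were called higher and 176 lower by edgeR, 589 and 590 by DESeq2, and 909 and 738 by edgeR with the letter block. The shares of all genes called by DESeq2 with the letter block, and without replicate D, were not determined. The larger counts of collagens under those settings therefore have no share of all genes beside them. The counts for the steps between days and for their difference were the same under the settings run. DESeq2 with the block, DESeq2 with the stricter thresholds and edgeR's newer estimation were added after seeing the data, and the last moved none of the 6 counts.

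Among the uncalled values, the sign turned as follows, always without a call. At 1 day Col6a1 (-0.13) was 0.0655 with the letter block, 0.0596 with DESeq2 and that block and 0.20 without replicate D, and ran from -0.59 to 0.55 when single libraries were left out. Without replicate D at 1 day Col6a2 was 0.29, Col6a3 0.15, Col16a1 0.17 and Col18a1 0.0538. With single libraries left out at 1 day Col6a2 ran from -0.75 to 0.49, Col12a1 from -0.0304 to 0.28, Col16a1 from -0.54 to 0.22 and Col18a1 from -2.36 to 0.33. At 0 day Col6a3 was -0.0489 without replicate D, and with single libraries left out Col6a1 ran from -0.13 to 0.30 and Col6a2 from -0.0367 to 0.35. Over both time points Col6a3 was 0.0316 with the title number block and 0.0110 without replicate D, Col18a1 was 0.12 without replicate D, and with single libraries left out Col6a1 ran from -0.13 to 0.25, Col6a2 from -0.13 to 0.27, Col6a3 from -0.22 to 0.19 and Col18a1 from -0.61 to 0.57. The cause was not tested. Depth limits Col10a1 and Col6a4, with 7 to 38 counts in a control KD library, and Col15a1 with at most 4.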
